A study of Rattus norvegicus with 18 samples.

Results

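The synaptotagmins and the related synaptotagmin-like protein Sytl4 were described in punches of 3 rat brain regions, the hypothalamic arcuate (ARC) and paraventricular (PVN) nuclei and, in the hindbrain, the solitary tract nucleus (NTS). The 10 members are the genes Syt1, Syt2, Syt4, Syt5, Syt6, Syt7, Syt9, Syt10, Syt11 and Sytl4, found by their gene symbol in the platform annotation. Each of the 10 had 1 probe set among the 23188 gene probe sets of the array, 15049 of which have exactly 1 symbol. The set was chosen by the measured PVN signals with EB and with Oil, which differed for Syt2, Syt9 and Sytl4, so the values of that comparison are given below as a description and without a test.

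All samples came from 90-day-old female Sprague-Dawley rats whose ovaries had been removed. The EB groups received 2 daily injections of 10 µg estradiol benzoate in 0.1 mL oil, the Oil groups received the same volume of oil alone, and tissue was taken on day 4. Each of the 6 combinations of region and treatment had 3 arrays, 18 in all, each made from total RNA of a bilateral punch. The methods describe as many rats per treatment as there are arrays per region and treatment, so the regions came from the same rats. The labels do not state which samples share a rat. The p-values measure the spread between these samples. The region comparisons treat the 18 arrays as independent, although arrays that share a rat are not. A fit with treatment and replicate number as a block changed no call of a member.

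Synaptotagmins are membrane proteins of synaptic vesicles and dense core granules with a pair of C2 domains. In several of them these domains bind calcium, and the binding couples calcium entry to fusion of the vesicle with the plasma membrane through the SNARE proteins. Members differ in calcium affinity, in speed and in the kind of vesicle they sit on, and neurons that release transmitter quickly and neurons that release peptides from granules use different ones.

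Signals are log2 intensities. On each array the background was the median of 23 background probe sets, which lay between 6.74 and 7.60. Levels of different genes cannot be set against each other on this scale, because each probe set has its own response. Several libraries were high for markers listed for other tissue, which do not establish where that signal came from. The mean of the 13 measured midbrain dopamine neuron markers (of 15 listed) was 9.07 and 9.05 in PVN Oil 1 and Oil 3. It was 6.80 to 7.12 in the other PVN libraries. In ARC EB 2 and EB 3 it was 10.63 and 9.36, against 7.96 to 8.26 in the other ARC libraries. Of this list, Slc6a3 was above background in all 6 ARC arrays, and Foxa2 was above it there in EB 2 alone. Oxytocin, the PVN hormone, stood at 14.52 in ARC Oil 1 and at only 6.97 and 6.92 in PVN Oil 1 and Oil 3, below the background, so these 2 libraries lacked a defining marker of their label. In the NTS, the choroid plexus marker Ttr was at 15.29 to 17.91 in EB 3 and all Oil libraries. The proglucagon gene Gcg was at 7.25 in NTS Oil 3 against at least 11.16 in the other NTS libraries. Phox2a, a transcription factor of hindbrain autonomic neurons, was below background in all 18 arrays, so it does not tell the regions apart. The mean of the 6 measured dorsal vagal complex markers (of 9 listed), Phox2a among them, was 6.55 to 8.75 in the NTS. It was 4.91 to 5.22 in the ARC and 4.83 to 5.02 in the PVN. The part of the marker differences between libraries in the results was not tested, except as values without the libraries named.

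**Figure D1:**
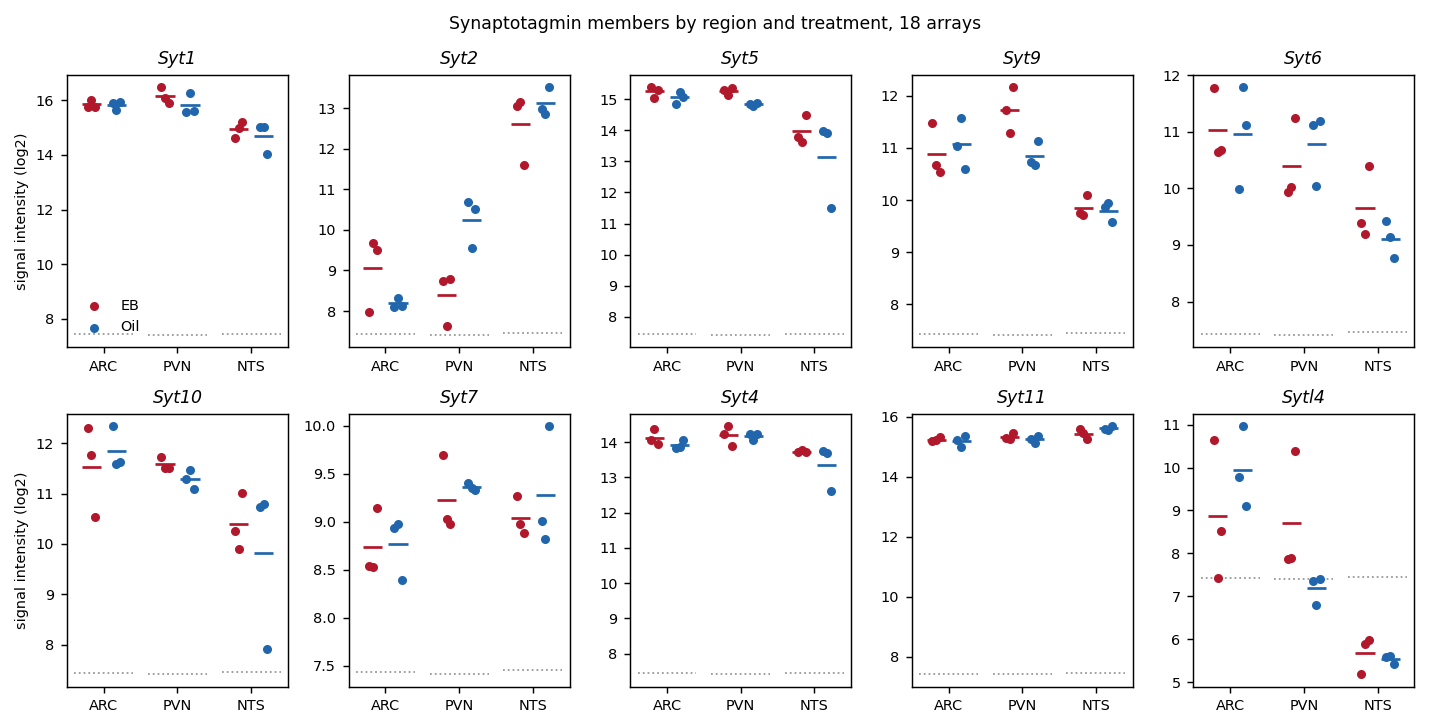
Log2 signal intensity of the 10 members (vertical axis, a separate scale per panel) in the 3 regions, with EB arrays in red, Oil arrays in blue, the mean of each 3 arrays as a short line and the mean background of the region as a dotted line. Syt2 was above every ARC and PVN array in all 6 NTS arrays, and Sytl4 was below the background in all 6 NTS arrays.

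Over the regions, Syt2 and most other members ran in opposite directions. Syt2 was 18.8-fold higher in the NTS than in the ARC, while Syt1, Syt5, Syt6, Syt9, Syt10 and Sytl4 were higher in the ARC. Between the ARC and NTS, 7 of 10 members were called, 6 of them higher in the ARC, where a call is a Benjamini-Hochberg adjusted p of 0.05 or less over all gene probe sets and a difference of 2-fold or more in limma's moderated test. Over all gene probe sets 7.13% were called, and 4.15% were called higher in the ARC. Between the PVN and NTS 7 of 10 were called as well, 6 higher in the PVN, beside 5.55% of all gene probe sets called and 2.6% called higher in the PVN. The median difference of the members was 1.09 for ARC minus NTS and 1.18 for PVN minus NTS, against 0.06 and -0.0011 over all gene probe sets.

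Syt1 and Syt2 are the fast calcium sensors of synchronous transmitter release, and Syt2 is the form known from mouse brainstem and from fast inhibitory synapses. Syt2 ran from 7.98 through a median of 8.23 to 9.68 in the ARC, from 7.62 through 9.17 to 10.68 in the PVN and from 11.61 through 13.01 to 13.52 in the NTS. The lowest NTS array was therefore above the highest PVN array. Syt2 was lower in the ARC than in the NTS by a log2 difference of -4.24 (SE 0.34, adjusted p = 3.91e-07) and lower in the PVN than in the NTS by -3.54 (SE 0.34, 11.6-fold, adjusted p = 2.58e-06). The ARC and PVN, the neighbours in this order, overlapped and differed by -0.70 (95% interval -1.41 to 0.02, adjusted p = 0.154).

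The ARC and PVN were also compared within each treatment. For Syt2 the difference of ARC minus PVN was -2.07 in the Oil arrays alone and 0.67 in the EB arrays alone, given as a description since each holds the PVN values that chose the members. The pair with midbrain markers, PVN Oil 1 and Oil 3, had the highest Syt2 of the PVN, 10.68 and 10.51.

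Syt1 went the other way. It lay at 15.66 to 16.02 in the ARC (median 15.83), at 15.55 to 16.48 in the PVN (median 15.98) and at 14.04 to 15.20 in the NTS (median 15.01). No NTS array reached the ARC or PVN range. The difference was 1.02 for ARC minus NTS (SE 0.18, 2.03-fold, adjusted p = 0.000449) and 1.16 for PVN minus NTS (SE 0.18, 2.24-fold, adjusted p = 0.000203). The ARC value sat at the 2-fold limit and fell below it without ARC EB 2 (0.98), ARC Oil 3 (0.996), NTS EB 1 (0.94) or NTS Oil 3 (0.85), with adjusted p between 0.000613 and 0.00167. Without NTS Oil 3 the PVN value was 0.995 and also under 2-fold. ARC and PVN differed by -0.14 (95% interval -0.53 to 0.25).

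**Figure D2:**
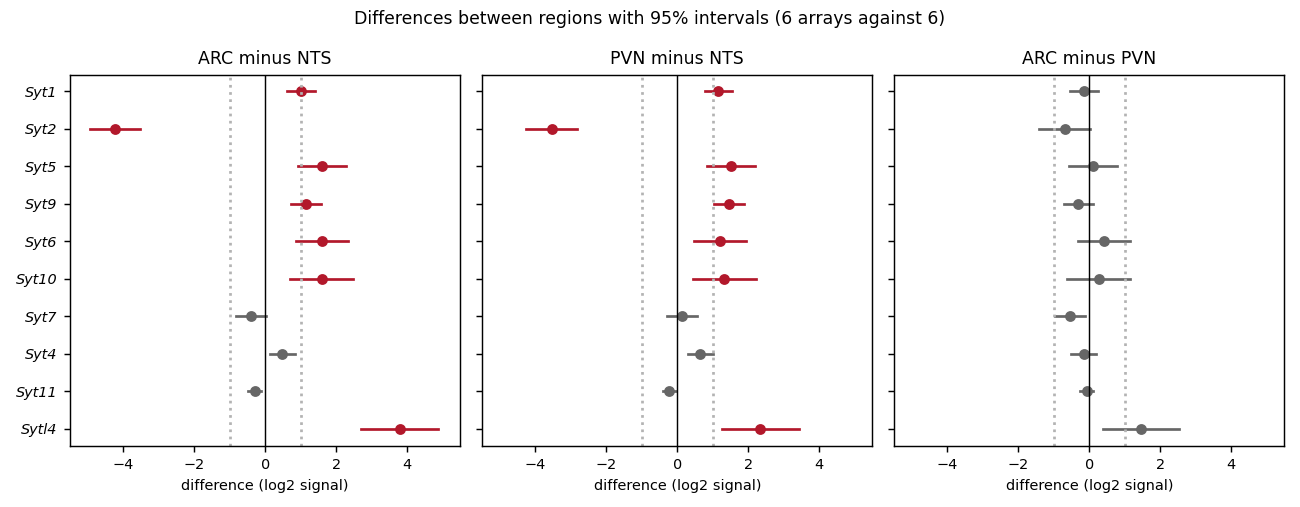
Difference in log2 signal between regions (horizontal axis) for each member, as the fitted difference with its 95% interval from 6 arrays against 6, with dotted lines at 2-fold and called members in red. For ARC minus NTS, Syt2 lies at -4.24 and Sytl4 at 3.79, on opposite sides of 0, and no member is called between ARC and PVN.

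Syt5 and Syt9 are calcium-binding forms of dense core granules in rat neuroendocrine cells. Their names were exchanged in older work, as RefSeq still gives SytIX as a synonym of Syt5 and Sytv as one of Syt9, so the names here are those of the platform annotation. Syt5 was at 14.86 to 15.40 in the ARC (median 15.17), 14.79 to 15.37 in the PVN (median 15.01) and 11.51 to 14.49 in the NTS (median 13.85). It was 3.05-fold higher in the ARC than in the NTS (log2 1.61, SE 0.32, adjusted p = 0.000892) and 2.84-fold higher in the PVN (1.51, SE 0.32, adjusted p = 0.0018). Every hypothalamic array was above every NTS array. With the Oil arrays alone, PVN minus NTS for Syt5 was 1.71 and was no longer called.

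Syt9 was at 10.53 to 11.58 in the ARC (median 10.85), 10.68 to 12.17 in the PVN (median 11.21) and 9.58 to 10.09 in the NTS (median 9.81). It was 2.23-fold higher in the ARC than in the NTS (log2 1.16, SE 0.20, adjusted p = 0.000291) and 2.76-fold higher in the PVN (1.46, SE 0.20, adjusted p = 5.43e-05). The NTS arrays of Syt9 were the narrowest of the 3 regions, and none of them reached the hypothalamic values. The ARC and PVN were not separated (-0.31, 95% interval -0.73 to 0.11).

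Syt6 is known from mouse sperm, where it acts in the acrosome, and Syt10 from mouse olfactory bulb neurons, where it controls the release of IGF-1. Syt6 was 3.06-fold higher in the ARC than in the NTS (log2 1.61, SE 0.35, adjusted p = 0.00163) and 2.31-fold higher in the PVN (1.21, SE 0.35, adjusted p = 0.0125). Its NTS arrays, at 8.77 to 10.39 with a median of 9.29, overlapped the ARC arrays at 9.99 to 11.79 and the PVN arrays at 9.93 to 11.25. The overlap came from NTS EB 3 alone, which stood at 10.39 while the other NTS arrays were at 9.43 or below. The PVN value of Syt6 was under 2-fold without PVN EB 3 (0.99, adjusted p = 0.0329), and no longer called in the EB arrays alone (0.74).

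Syt10 was at 10.53 to 12.34 in the ARC (median 11.69), 11.08 to 11.73 in the PVN (median 11.49) and 7.92 to 11.02 in the NTS (median 10.50). It was 3.01-fold higher in the ARC than in the NTS (log2 1.59, SE 0.42, adjusted p = 0.00696) and 2.51-fold higher in the PVN (1.33, SE 0.42, adjusted p = 0.0218). NTS Oil 3, the library with little Gcg, held the lowest value. Without it, PVN minus NTS for Syt10 was 0.85 (adjusted p = 0.026), under 2-fold, and without NTS EB 2 it was 1.20 with an adjusted p of 0.0539. Between the ARC and NTS, 6 of 10 members did not overlap (Syt1, Syt2, Syt4, Syt5, Syt9 and Sytl4) beside 20.3% of all gene probe sets. Between the PVN and NTS it was 7 of 10, these and Syt10, beside 17.7%.

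Syt7 is the high-affinity, slow sensor of asynchronous release and facilitation. Its signal was 8.39 to 9.14 in the ARC, 8.97 to 9.69 in the PVN and 8.82 to 10.00 in the NTS. The highest value, 10.00, belonged to NTS Oil 3, and the ranges of all 3 regions overlapped. Syt7 was not called between any pair of regions, with differences of -0.41 for ARC minus NTS (95% interval -0.83 to 0.01), 0.14 for PVN minus NTS (-0.28 to 0.56) and -0.54 for ARC minus PVN (-0.96 to -0.12, adjusted p = 0.0619).

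Syt4 and Syt11 carry a changed residue in the calcium site of the first C2 domain, and in mouse Syt4 is known to restrain the release of oxytocin from PVN neurons. Syt4 was at 13.82 to 14.36 in the ARC, 13.88 to 14.45 in the PVN and 12.62 to 13.76 in the NTS, again without overlap between the NTS and the hypothalamic arrays. Its differences passed the adjusted p but stayed under 2-fold, at 0.48 for ARC minus NTS (SE 0.16, adjusted p = 0.0267) and 0.65 for PVN minus NTS (SE 0.16, 1.56-fold, adjusted p = 0.00622). Syt11 had small differences between regions and, like Syt2, its level was higher in the NTS, at 15.24 to 15.68 against 14.999 to 15.36 in the ARC and 15.12 to 15.46 in the PVN. The difference was -0.30 for ARC minus NTS (SE 0.09, 1.23-fold, adjusted p = 0.011) and -0.22 for PVN minus NTS (SE 0.09, adjusted p = 0.0519).

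Sytl4, also named granuphilin, is not a synaptotagmin proper and lacks their membrane-spanning segment. It binds Rab27 and docks secretory granules at the plasma membrane, best known in pancreatic beta cells. In the ARC its values were 10.64, 7.43 and 8.52 in EB 1 to 3 and 9.77, 10.96 and 9.09 in Oil 1 to 3. Only ARC EB 2 was below its background there. In the PVN 4 of 6 arrays were above background, and in the NTS none was, with values of 5.18 to 5.97. Sytl4 was therefore at least 3.86-fold higher in the ARC than in the NTS and at least 1.41-fold higher in the PVN. The bound takes the background as the NTS level and was not tested. The PVN bound leans on PVN EB 3, at 10.38, since the other PVN arrays lay around the background, at 6.80 to 7.89. The measured log2 differences were 3.79 for ARC minus NTS (SE 0.51, adjusted p = 3.89e-05) and 2.34 for PVN minus NTS (SE 0.51, adjusted p = 0.00221). These p-values rest on NTS values below background.

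Between the ARC and PVN, Sytl4 was the member nearest to a call, with a log2 difference of 1.45 (SE 0.51, 2.74-fold, adjusted p = 0.0533). None of the 10 members was called in this comparison by limma, beside 2.23% of all gene probe sets, and 2 had an unadjusted p under 0.05, Sytl4 and Syt7. Leaving out a single library could make the call. Without ARC EB 2 the difference was 1.81 (adjusted p = 0.0172) and without ARC Oil 3 it was 1.67 (adjusted p = 0.0423). Without PVN EB 3 it was 1.87, a description only, since the Sytl4 value of that array was among those that chose the members. In a further fit, 6 libraries with markers of other tissue or low regional markers were left out. They were ARC EB 2, ARC EB 3, ARC Oil 1, PVN Oil 1, PVN Oil 3 and NTS Oil 3. The difference was then 2.58, with a single array left in each of the ARC EB and PVN Oil groups. ARC Oil 2 stayed in, with the highest Sytl4 of the ARC, 10.96, and its highest mean of the pituitary endocrine markers, 11.02.

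Sytl4 moved with Pomc, the precursor of melanocortin peptides made in ARC neurons and in the pituitary. Pomc was at 13.33, 5.38 and 10.24 in ARC EB 1 to 3 and at 11.30, 13.71 and 9.78 in ARC Oil 1 to 3. The ARC arrays thus kept the same 2 highest and the same lowest library for both genes, namely Oil 2, EB 1 and EB 2. In the PVN, EB 3 alone was high for both, with Pomc at 9.47 against 4.75 to 6.73 in the other 5 arrays. The 6 pituitary endocrine markers listed, which include Pomc, had means of 7.19 to 11.02 in the ARC, 5.91 to 6.84 in the PVN and 5.88 to 6.19 in the NTS. The pituitary hormone subunit Cga was at 7.96, 6.54 and 14.10 in ARC EB 1 to 3 and at 11.10, 16.14 and 7.92 in ARC Oil 1 to 3. The mean of 7 measured ARC neuron markers, Pomc among them, was 11.04, 8.40 and 9.65 in EB 1 to 3 and 9.78, 11.41 and 9.62 in Oil 1 to 3. Sytl4 and the ARC neuron mean shared their 2 highest libraries and their lowest. Sytl4 and the pituitary mean shared their highest library, Oil 2 (pituitary mean 11.02), and their lowest, EB 2 (7.19). The next highest was EB 3 for the pituitary mean (9.98) and EB 1 for Sytl4. Pomc belongs to both lists. Whether pituitary tissue or ARC neurons had a part in the Sytl4 level was not tested.

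**Figure D3:**
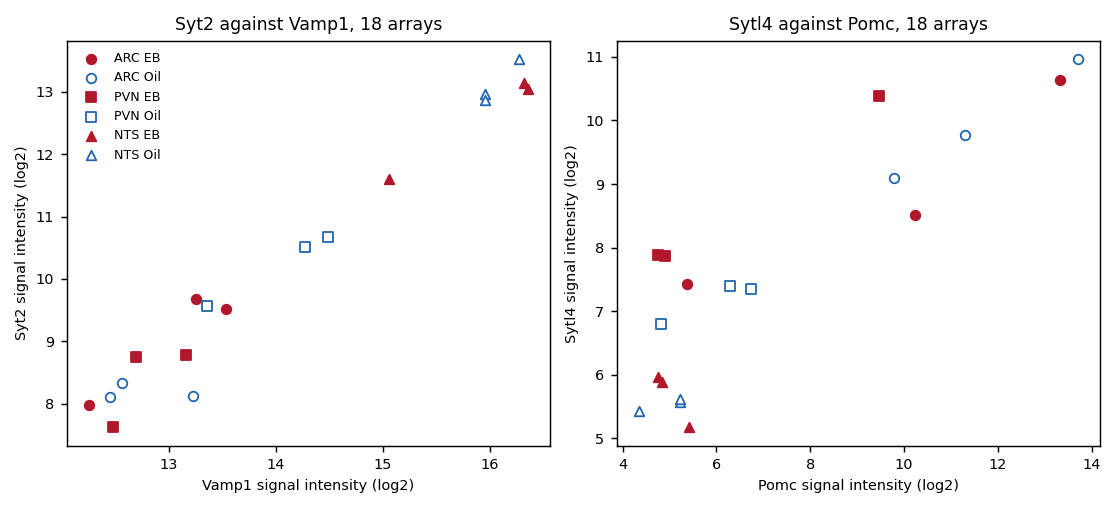
Log2 signal of Syt2 against Vamp1 (left) and of Sytl4 against Pomc (right), 1 point per array, with circles for ARC, squares for PVN, triangles for NTS, filled red for EB and open blue for Oil. Syt2 and Vamp1 rise together from ARC to NTS (r = 0.99 over 18 arrays), and PVN EB 3 is the filled square near Sytl4 10.38 and Pomc 9.47.

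The genes most like Syt2 over all 18 arrays, among probe sets with 1 symbol, were Vamp1 (Pearson r 0.99), Nefm (0.98), Plekho1 (0.98), Scn4b (0.97) and Nefh (0.97). Vamp1 is a vesicle SNARE, Nefm and Nefh are neurofilament subunits and Scn4b is a sodium channel subunit. These coefficients are descriptions, and the 18 points share 3 regions and whatever tissue the punches took in. With each region's mean subtracted, Cdadc1 (0.92), Vamp1 (0.91), Nefm (0.90), Slc25a25 (0.89) and Gpr22 (0.89) ranked first, so Vamp1 and Nefm stood in both lists. Subtracting region means leaves in the PVN difference by which Syt2, Syt9 and Sytl4 were chosen. The region-centred lists of all 3 genes are therefore not free of that choice. For Syt9 the first over all arrays were Cyld (0.96), Wdr13 (0.94), Ldb2 (0.94), Kcnip2 (0.92) and Prkce (0.92), and with region means subtracted Sytl4 itself came first (0.86), before Cyld (0.85), Ldb2 (0.84), Hrk (0.82) and Rps20 (0.81). The coefficient between Syt9 and Sytl4 was 0.88 within the ARC, 0.89 within the PVN and 0.53 within the NTS, each over 6 arrays, and all 6 NTS values of Sytl4 were below background. Both genes were chosen with a higher PVN signal in EB than in Oil, so the PVN and the region-centred coefficients are in part given by that choice. For Sytl4 the first were Sin3b (0.97), Rasgrf2 (0.96), Fezf1 (0.95), Rps12 (0.95) and Hrk (0.94) over all arrays, and Nr0b1 (0.90), Fezf1 (0.89), Or7g25c (0.89), Sin3b (0.88) and Pomc (0.87) with region means subtracted.

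Syt9 and Sytl4 are the members that were chosen with a higher PVN signal in EB, and their upstream sequence is shown for that reason, the 250 bases before the annotated start in RefSeq (build GRCr8), at chr1:170687555-170687804 on the plus strand for Syt9 and chrX:101479152-101479401 on the minus strand for Sytl4, read 5′ to 3′. Capitals mark a GC box, GGGCGG on either strand.
Syt9: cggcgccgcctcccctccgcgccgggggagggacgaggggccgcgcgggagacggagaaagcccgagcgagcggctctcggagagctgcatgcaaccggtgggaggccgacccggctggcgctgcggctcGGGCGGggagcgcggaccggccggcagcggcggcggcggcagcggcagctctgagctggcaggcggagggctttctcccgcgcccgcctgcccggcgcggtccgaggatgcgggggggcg
Sytl4: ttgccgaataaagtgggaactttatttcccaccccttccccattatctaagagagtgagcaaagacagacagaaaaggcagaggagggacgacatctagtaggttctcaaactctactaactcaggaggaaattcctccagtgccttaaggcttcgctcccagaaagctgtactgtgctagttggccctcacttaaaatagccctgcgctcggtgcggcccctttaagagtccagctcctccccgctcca
The starts used lie 139 bases (Syt9) and 56 bases (Sytl4) inside the gene's edge, so part of each window is within the annotated gene. The Syt9 window is 80.8% G and C and holds 1 GC box, whose first base lies 120 bases before the start. That box is therefore within the annotated gene. The Sytl4 window is 50.8% G and C, close to the median of 51.2% over all 33469 windows, and holds none. Of the 10 members 7 had a window, not Syt5, Syt7 and Syt10, and the Syt2 window lies 97488 bases inside the gene's edge and is not shown. The estrogen response element half-site GGTCA, on either strand, was in 2 of the 7 windows (Syt1 and Syt6) and in 35.4% of all windows, and the full element (GGTCA, then 3 bases of any kind, then TGACC) in 0 of 7 and 0.0239% of all. The GC box was in 4 of 7 (Syt1, Syt6, Syt9 and Syt11) and in 30.5% of all. The cAMP response element TGACGTCA was in 0 of 7 (1.59% of all), and the E-box CACGTG in 1, Syt6 (5.59% of all). A match is a description of the letters only.

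Vamp1, Nefm, Nefh and Scn4b belong to a list of 14 markers of fast-spiking neurons and large axons, 13 of which were measured. Their mean lay at 9.53 to 10.92 in the ARC, 9.73 to 11.51 in the PVN and 12.01 to 13.71 in the NTS. Of the 13, 12 were called lower in the ARC and 11 lower in the PVN than in the NTS. Of all 23188 gene probe sets, 691 were called lower in the ARC and 683 lower in the PVN. Among the listed genes, Nefh differed by -4.84 and -4.11 and Vamp1 by -3.10 and -2.58. The whole list ran in the direction of Syt2. Vamp1, Nefm, Nefh and Scn4b were named as most like Syt2 in these same arrays, so their direction follows from that choice. The list was also chosen with earlier results of these data known, so nothing is read from the match. In these bulk punches, fewer cells of a type and less RNA per cell cannot be told apart.

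In the PVN, the comparison from which the members were chosen, Syt2 was lower with EB and Sytl4 and Syt9 were higher. Syt2 was at 8.74, 7.62 and 8.78 in EB 1 to 3 and at 10.68, 9.57 and 10.51 in Oil 1 to 3, a difference of -1.87 (SE 0.39, 3.65-fold lower). All 3 EB arrays were below all 3 Oil arrays. Syt9 was at 11.73, 11.29 and 12.17 with EB and at 10.73, 10.68 and 11.14 with Oil, a difference of 0.88 (SE 0.24, 1.84-fold higher), just short of 2-fold. Its groups did not overlap either. Sytl4 was at 7.87, 7.89 and 10.38 with EB, all above background, and at 7.35, 6.80 and 7.40 with Oil, where only Oil 3 was above background. The log2 difference was 1.53 (SE 0.63), given without a fold because 2 of 3 Oil arrays were below background, and EB 3 carried much of it, since it fell to 0.69 without that array.

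Of the other members, Syt5 (0.42, SE 0.12) and Syt10 (0.31, SE 0.15) also had all EB arrays above all Oil arrays. Syt1 (0.34), Syt11 (0.08), Syt4 (0.01), Syt7 (-0.13) and Syt6 (-0.39) overlapped. In all, 5 of 10 members did not overlap beside 12.4% of all gene probe sets, and 2 of 10 differed by 2-fold or more beside 0.556%. Of all gene probe sets, 0.332% were called in the PVN at 2-fold with a raw p no higher than 0.05. Since this comparison chose the members, nothing is read from these counts.

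The marker values of the same arrays moved with Syt2. The mean of the fast-spiking and large axon list was 9.73 to 10.55 in PVN EB and 10.74 to 11.51 in PVN Oil. All 13 measured genes were lower with EB, and 7 of 13 were called, beside 42 of all 23188 gene probe sets called lower. This comparison chose Syt2, and the list holds genes named above as most like Syt2 in these arrays. Nothing is read from their match, since it is in part given by that choice. Without PVN Oil 1 and Oil 3, which leaves 1 Oil array, the Syt2 difference was -1.18 and Syt1 stood at -0.12, Syt6 at 0.35, Syt10 at 0.12 and Syt11 at 0.21. The differences of Syt9 and Sytl4 were not smaller there. The array left, Oil 2, was the lowest PVN Oil array for both, at 10.68 for Syt9 and 6.80, below background, for Sytl4. Of the 6 PVN neuron markers, all were higher with EB and 2 were called, beside 35 of all 23188 gene probe sets called higher. Oxytocin and vasopressin (Avp) had the largest differences of these. Both were below background in PVN Oil 1 and Oil 3, Avp at 7.11 and 6.80. The part of the punched tissue in these values was not tested beyond leaving out libraries.

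**Figure D4:**
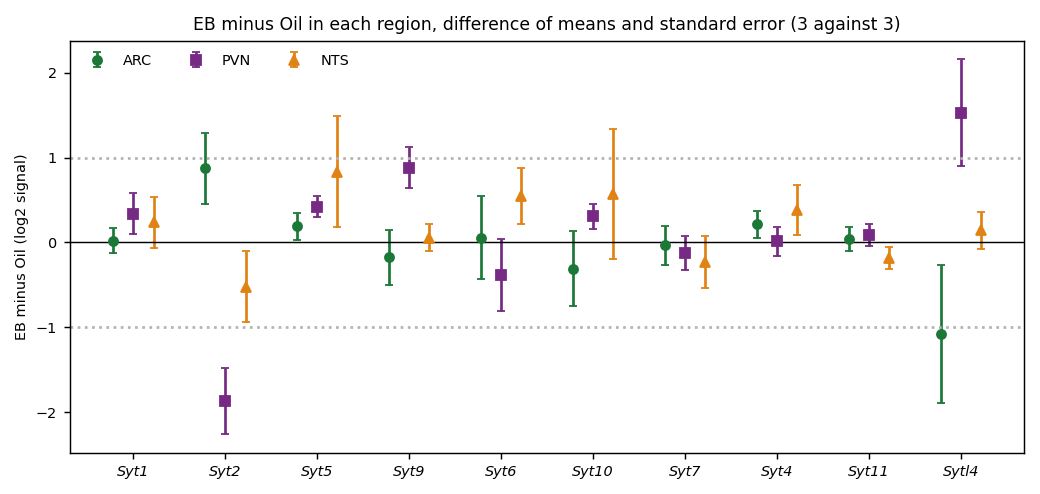
EB minus Oil difference in log2 signal (vertical axis) for each member, with green circles for ARC, purple squares for PVN and orange triangles for NTS, bars of 1 standard error from 3 arrays against 3, and dotted lines at 2-fold. Syt2 lies at -1.87 in the PVN, 0.87 in the ARC and -0.52 in the NTS, and only the PVN values of Syt2 and Sytl4 and the ARC value of Sytl4 pass 2-fold.

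In the ARC, none of the 10 members was called between EB and Oil in limma at 2-fold with a raw p no higher than 0.05, beside 0.479% of all gene probe sets, and none had an unadjusted p under 0.05. Adjusted p-values ran from 0.852 to 0.991. No member had separate groups, beside 11.2% of all gene probe sets. Syt2 was at 7.98, 9.68 and 9.51 with EB and at 8.11, 8.33 and 8.12 with Oil, a difference of 0.87 (SE 0.42, 95% interval -0.10 to 1.85). The high pair, EB 2 and EB 3, were the ARC libraries with midbrain markers. Sytl4 differed by -1.08 (SE 0.81, 95% interval -2.97 to 0.81), with EB 2 the lowest and the other EB arrays within or below the Oil range.

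The ARC count and the ARC Sytl4 value changed with single arrays. Without ARC EB 1, which leaves EB 2 and EB 3, 2 members were called, Syt2 at 1.41 (adjusted p = 0.249) and Sytl4 at -1.97 (adjusted p = 0.54). Without ARC EB 2 the Sytl4 difference was -0.36, and without ARC Oil 2 it was -0.57. The Syt2 difference was 0.56 without ARC EB 2. The remaining 8 members differed by -0.31 to 0.21 in the full comparison, Syt10 lowest and Syt4 highest.

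In the NTS, 0 of 10 members were called between EB and Oil in limma, beside 0.0776% of all gene probe sets, and 0 had an unadjusted p under 0.05. Adjusted p-values ran from 0.934 to 0.975, and no member had separate groups, beside 11.2% of all gene probe sets. Syt2 was at 13.05, 13.14 and 11.61 with EB and 12.97, 12.86 and 13.52 with Oil, a difference of -0.52 (SE 0.42, 95% interval -1.52 to 0.48). EB 3 alone was below the Oil arrays. Syt5 had the largest difference, 0.84 (SE 0.66, 95% interval -0.72 to 2.39), with Oil 3 at 11.51 and the other 5 arrays at 13.62 to 14.49. Without Oil 3 it was 0.02. Sytl4 was below background in both groups and is given no fold.

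The difference between the EB effects of the ARC and of the NTS was tested directly in 1 fit of all 18 arrays. None of the 10 members passed an adjusted p of 0.05, as was the case for 0 of all 23188 gene probe sets (0%), 1415 of which had an unadjusted p under 0.05. Among the members Syt2 came nearest, with an ARC EB effect 1.39 above that of the NTS on the log2 scale (SE 0.67, adjusted p = 0.798 by limma). Both effects leaned on single arrays. With each array left out in turn, EB minus Oil for Syt2 ran from 0.56 to 1.41 in the ARC and from -0.79 to -0.02 in the NTS. The PVN was left out of that test because its EB comparison chose the members.

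The rest of the release machinery was followed in lists of other genes. Over all gene probe sets, 7.13% were called for ARC minus NTS, 5.55% for PVN minus NTS and 2.23% for ARC minus PVN. In lists this short, no call or a single call is near these shares, and nothing is read from it about the list. The synaptotagmins and synaptotagmin-like genes outside the members, 9 of 12 measured, had 1 call between the ARC and NTS, Syt3 (-1.62, adjusted p = 2.94e-06), and 2 between the PVN and NTS, Syt13 higher (1.52, adjusted p = 1.86e-05) and Syt15 lower but below background in both. Of 17 measured SNARE proteins and regulators, Vamp1 and the fusion clamp Cplx1 were lower in the ARC (-3.10 and -2.71) and in the PVN (-2.58 and -1.50) than in the NTS, and Stxbp2 was called higher in the ARC although it was below background in 5 of 6 ARC arrays and in all 6 NTS arrays. Vamp1 moved the same way as Syt2, which follows from its place among the genes most like Syt2 above. The 9 measured Rab3 and Rab27 genes with effectors, partners of Sytl4, had no call between any pair of regions. Rab27a was below background in all 18 arrays, and Rab27b was at 11.19 to 12.67.

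Among 10 synaptic vesicle proteins, Sv2c was lower in the ARC (-2.69) and PVN (-3.40) than in the NTS, Sv2b lower in the ARC (-1.31), and Synpr higher in both (1.59 and 1.30). Among 6 measured other C2 domain proteins, Otof and Doc2b were called higher and Dysf and Esyt1 lower in both hypothalamic regions, with Otof and Doc2b below background in the NTS. Rimbp2, an active zone protein, was higher in the ARC (1.32) and PVN (1.19). It was the only one called of 10 measured priming genes, a count near the shares over all gene probe sets. Of 3 presynaptic calcium channel genes, Cacna1e was higher in both (1.31 and 1.41). Of 11 measured dense core granule genes, the peptide-amidating enzyme Pam was higher in the ARC (1.81) and the PVN (1.39), and Ptprn2 in the PVN (1.23). None of the genes of these 8 lists was called between EB and Oil in the ARC or in the NTS, beside 0.479% and 0.0776% of all gene probe sets. In the PVN Vamp1 (-1.26) and Cplx1 (-1.0014) were lower with EB.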

How the data were processed

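Values were the log2 signal intensities that the authors deposited for 24834 probe sets of the Rat Clariom S Pico array, 1 column per sample, which per the study's methods the array service had background-adjusted, normalized and put on the log2 scale with the approach of Irizarry. The authors then used the Transcriptome Analysis Console. The 1646 control probe sets were left out, and 23188 gene probe sets were tested.

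EB and Oil were compared within each region with limma 3.58.1 (lmFit and eBayes, R 4.3.3), with calls at 2-fold and a raw p no higher than 0.05, the study's rule. Regions were compared in 1 fit of 18 arrays averaged over treatments, called at a Benjamini-Hochberg adjusted p of 0.05 or less and 2-fold. The script was tested on simulated data. The members and gene lists were chosen with earlier results of these data known. All 10 members are named. Of each list, up to 4 called genes with the smallest p are named (in the PVN EB comparison, those with the largest difference), and 5 genes by correlation for Syt2, Syt9 and Sytl4. Oxt, Ttr, Gcg, Phox2a, Pomc, Cga, Rab27a and Rab27b were named after their values were seen. Normalization, a dim filter, prior variance, replicates, treatments, a replicate block and libraries with markers of other tissue were varied. The number of arrays limits the precision.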

Additional observations from a re-analysis of the deposited data

Results flagged for a closer look

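Within each region, each member's 6 arrays were searched for a highest or lowest array far from the nearest other by Dixon's criterion, in 30 sets, of which chance marks about 1 in 20. NTS Oil 3 was lowest for 3 members, Syt5 at 11.51 (next 13.62), Syt10 at 7.92 (next 9.89) and Syt4 at 12.62 (next 13.68). The same library had the lowest dorsal vagal complex marker mean of the NTS, 6.55 against 8.20 to 8.75 in the others. NTS EB 3 was lowest for Syt2, at 11.61 (next 12.86), and had the highest choroid plexus marker mean, 14.27. PVN EB 3 was highest for Sytl4, at 10.38 (next 7.89), with Pomc at 9.47, and this is a description with no test, since the PVN values of Sytl4 were among those that chose the members. The part of other tissue in these values was not tested.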

How the results depend on the processing

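Quantile normalization, a filter on dim probe sets, an eBayes prior with trend and robust, and 1 fit of all 18 arrays changed no call of a member. With the replicate number as a block, calls also stayed at 0 of 10 in the ARC and NTS EB comparisons, 2 of 10 past 2-fold in the PVN, and 0, 7 and 7 of 10 for ARC minus PVN, ARC minus NTS and PVN minus NTS. Same-numbered EB and Oil arrays of a region had correlations of their deviations from -0.46 to 0.13, and same-numbered arrays of 2 regions in 1 treatment from -0.11 to 0.42, all 6 of ARC and PVN above 0 (0.0183 to 0.42). Not every pair was above 0.1, and the labels give no shared rat, so the numbers were not taken as pairs. With Oil arrays only, 2 members passed the threshold for ARC minus PVN, Syt2 and Sytl4, from which nothing is read because their PVN values chose the set, and Syt1 and Syt9 changed sign (0.018 and 0.22). With EB arrays only, Syt2, Syt5 and Syt10 changed sign there (0.67, -0.0105 and -0.0499), and 4 members were called for ARC minus NTS, without Syt1 (0.91), Syt6 (1.37) and Syt10 (1.15). Without 6 libraries with markers of other tissue or low regional markers, a single array was left in each of the ARC EB and PVN Oil groups. For ARC minus PVN, Sytl4 then stood at 2.58 and Syt9 at 0.0792. Syt1 for ARC minus NTS (0.79) and Syt6 and Syt10 for PVN minus NTS (0.75 and 0.95) were then under 2-fold. Syt10 was also not called for PVN minus NTS with Oil arrays only (1.46) or EB arrays only (1.20). An alternative chosen after seeing the data, without NTS EB 3 and all 3 NTS Oil arrays, sets 2 NTS EB arrays against both treatments of the other region and lost only Syt6 for PVN minus NTS (1.30, adjusted p = 0.0749).

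Leaving out each array in turn, the calls ran from 0 to 2 for EB minus Oil in the ARC, 0 to 0 in the NTS, 0 to 1 for ARC minus PVN, 6 to 7 for ARC minus NTS and 5 to 7 for PVN minus NTS, and 1 to 3 members passed 2-fold in the PVN EB comparison. Members whose small EB differences changed sign ran in the ARC from -0.0665 to 0.0678 (Syt1), -0.43 to 0.47 (Syt6), -0.24 to 0.0721 (Syt7), -0.47 to 0.0761 (Syt9), -0.70 to 0.19 (Syt10) and -0.0554 to 0.12 (Syt11), and in the NTS from -0.0961 to 0.40 (Syt1), -0.46 to 0.13 (Syt7), -0.0632 to 0.13 (Syt9), -0.38 to 1.06 (Syt10) and -0.0042 to 0.39 (Sytl4). Where the number of arrays left is not the reason, the cause was not tested.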
